A study of Homo sapiens with 6 samples.

Results

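The short arm of human chromosome 5 (5p) held 454 of the 19108 regions occupied by full-length ZNF469 in LX-2 cells, or 2.38% of the list. These regions were chosen by their position, as all records of the full-length peak list on chromosome 5 that end before 46.4 Mb (hg38), and they were set against the 1185 records that start beyond 50 Mb, called 5q here. The first region of 5q was chr5:50393823-50394319, and no record of chromosome 5 lay between the 2 limits. The arm was selected on the same fold enrichment and −log10 p-value columns that give the levels below, and it was picked out with its high background already known. Its density, pileup, background and fold are therefore descriptions, given without a test.

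The data are CUT&RUN libraries, in which an antibody tethers a nuclease to its target so that the DNA around the target is released and sequenced. The antibody was against ZNF469, a large zinc finger protein, and the cells were LX-2, an immortalized human line from hepatic stellate cells, which make collagen in the injured liver. All 6 libraries came from LX-2 cells that carried a piggyBac transposon and received 1 µg/mL doxycycline for 24 h. In 3 libraries the transgene was full-length ZNF469, and in the other 3 it was dZF-ZNF469, from which zinc fingers were deleted. Each construct sat in its own selected line, and no library without doxycycline or without a transgene was analysed here. The processed files hold 1 peak list per construct, so no value per library and no replicate error can be given. They hold no expression values, so the stellate identity of the cells was not checked against marker genes.

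A peak caller compares the number of fragments at the summit of a region, the pileup, with the number that the neighbourhood would give at a single position, the local background. A stretch of the genome that yields many fragments raises both numbers, and the fold, which is (pileup + 1)/(background + 1), changes less. The pileup and the background of each region were recovered from the deposited fold and −log10 p-value. The background moved in steps of 0.0103 fragments, which is 103 bp over a 10 kb window, and it can therefore be read as a count of fragments in the 10 kb around the summit. As background to the arm itself, 5p carries large cell adhesion and guidance genes, a group of cytokine and hormone receptor genes, the exchange factor gene TRIO, and TERT, the catalytic subunit of telomerase, near the chromosome end.

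The regions with the highest pileups of the arm are shown as the plus strand of hg38, 60 bp to each side of the summit. The first 3 have the highest pileups on 5p, and the last 3 have the highest pileups among regions, outside UTRs, that hold the AP-1 letters TGACTCA on either strand within this window, which are in capitals. The 3 regions of highest pileup hold no match to these letters here.
TRIO intron, chr5:14190582-14190702: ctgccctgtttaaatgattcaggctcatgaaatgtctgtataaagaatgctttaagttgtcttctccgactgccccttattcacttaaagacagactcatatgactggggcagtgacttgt
Intergenic near DNAH5, chr5:14036159-14036279: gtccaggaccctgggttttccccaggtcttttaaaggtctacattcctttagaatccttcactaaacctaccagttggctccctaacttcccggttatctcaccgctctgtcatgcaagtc
BASP1, chr5:17238920-17239040: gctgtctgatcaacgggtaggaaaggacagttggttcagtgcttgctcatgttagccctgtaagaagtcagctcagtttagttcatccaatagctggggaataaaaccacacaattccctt
OSMR intron, chr5:38872326-38872446: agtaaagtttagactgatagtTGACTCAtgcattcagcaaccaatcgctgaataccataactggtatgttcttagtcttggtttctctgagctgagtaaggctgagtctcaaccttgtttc
TRIO intron, chr5:14178774-14178894: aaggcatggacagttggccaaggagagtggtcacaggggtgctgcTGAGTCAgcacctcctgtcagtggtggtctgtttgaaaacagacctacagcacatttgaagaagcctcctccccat
TRIO, near an alternative start, chr5:14185731-14185851: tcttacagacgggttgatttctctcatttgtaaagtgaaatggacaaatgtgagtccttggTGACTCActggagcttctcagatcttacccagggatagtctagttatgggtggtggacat

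Regions of 5p stood on a higher local background than those of 5q. The median background was 3.57 fragments on 5p, 2.12 on 5q and 1.77 on the other chromosomes, so that 5p was 1.68 times 5q and 2.01 times the others. In terms of the 10 kb window around the summit, the median region of 5p had 346.5 fragments, against 206 on 5q and 172 elsewhere. The whole distribution was shifted, not only its upper end. The 5p to 5q ratio was 1.73 at the 5% quantile, 1.79 at the 10% quantile and 1.57 at the 95% quantile. Of the 454 regions, 424 (93.4%) were above the 5q median, 295 (65.0%) above the 5q upper quartile, and 162 (35.7%) above the 5q 90% quantile. Conversely, 57.1% of the 5q regions and 70.1% of those on other chromosomes were below 2.29 fragments, the 10% quantile of 5p.

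The lowest background that the full-length list contains was 0.865 fragments, a floor shared by all regions in sparse surroundings. It was reached by 1 of 454 regions on 5p (0.220%), 7 of 1185 on 5q (0.591%) and 592 of 17469 on the other chromosomes (3.39%). Since the 10 kb window includes the region itself, the summit's own fragments were also subtracted, a step added after the data were seen. The medians were then 313.5, 181 and 151 fragments per 10 kb, and the 5p to 5q ratio was 1.73. Regions were close together on the arm, with a median of 9.96 kb to the nearest other region against 12.9 kb on 5q and 18.7 kb elsewhere. Among the 163 regions of 5p with no other region within 20 kb, the median background was 2.86 fragments, against 1.76 for 467 such regions of 5q and 1.50 on the other chromosomes. The lists do not separate the number of DNA copies of a chromosome arm from the number of fragments released per copy, and the 2 cannot be told apart here.

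**Figure D1:**
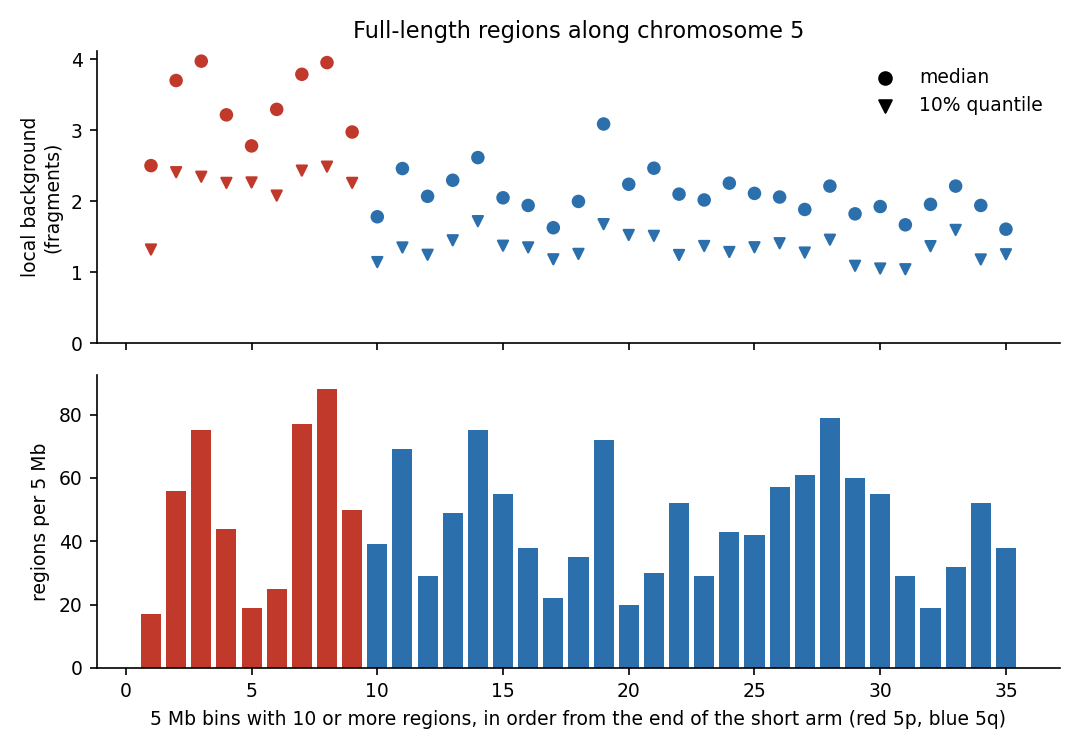
Median (circles) and 10% quantile (triangles) of the local background in fragments, and number of full-length regions, in successive 5 Mb bins of chromosome 5 that held 10 or more regions, in order from the end of the short arm. The 9 bins of 5p (red) had median backgrounds of 2.50 to 3.98 fragments, and the 26 bins of 5q (blue) of 1.61 to 3.09.

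The step along the chromosome was examined in 5 Mb bins with at least 10 regions. The bin at the end of the arm, with 17 regions, had a median background of 2.50 fragments and a 10% quantile of 1.32, which was within the range of 5q. From 5 to 45 Mb the medians of the 8 bins were between 2.78 and 3.98 fragments, and their 10% quantiles between 2.08 and 2.49. The 26 bins of 5q had medians of 1.61 to 3.09 and 10% quantiles of 1.04 to 1.72. The highest of them, between 95 and 100 Mb, had 72 regions and was the only 5q bin whose median exceeded the lowest of the 5p bins beyond 5 Mb. The 10% quantiles of those 8 bins and of the 5q bins did not overlap.

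The change lay across the stretch without records around the centromere. The last 20 regions of 5p had a median background of 2.92 fragments with a range of 1.74 to 7.61. The first 20 regions of 5q, between 50393823 and 53253979, had a median of 1.80 and a range of 1.08 to 2.90. The ranges overlap. The first region of 5q, 48.9 kb from the start of EMB, had a background of 2.19 and a pileup of 42. At the other end of the arm, the first 20 regions, which reach to 5026290, had a median background of 2.58 fragments, and the last 20 regions of 5q had 1.56.

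Genome-wide, 514 bins of 5 Mb held 10 or more regions. By the 10% quantile of background, 8 of the 10 highest bins were the 8 bins of 5p beyond 5 Mb. None of the bins outside 5p reached 2.08 fragments, the lowest of the 8, and the highest bin on another chromosome had 1.83. By the median, 6 bins outside 5p were at or above 2.78 fragments, among them the highest of all at 4.09, on chromosome 2 between 185 and 190 Mb. Thus single bins with equally high medians occurred elsewhere, while the low end of the background was high in the 8 bins from 5 Mb to 45 Mb. The 3 regions of the arm beyond 45 Mb, too few for a bin, had a lower median background of 2.05 fragments.

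**Figure D2:**
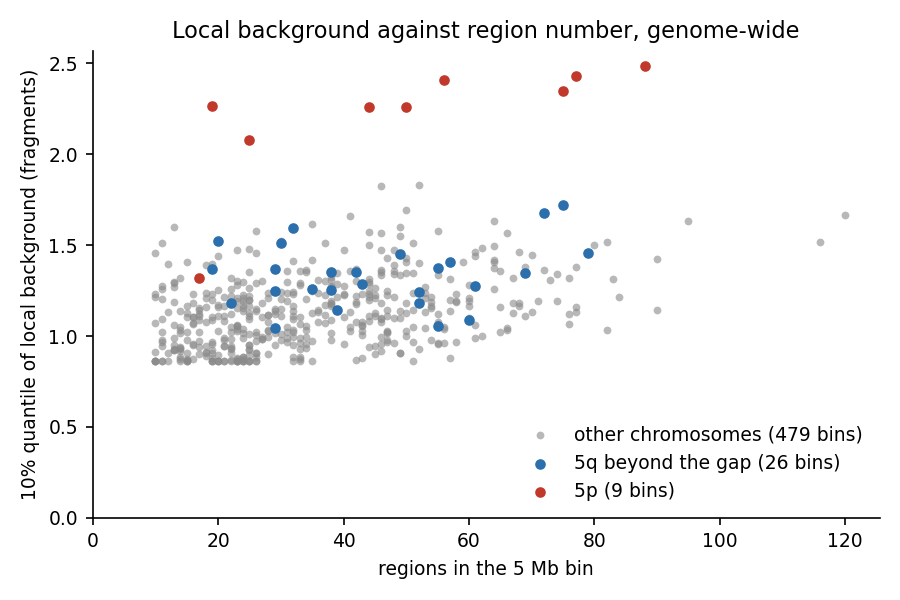
Number of full-length regions (x axis) and 10% quantile of local background in fragments (y axis) for each 5 Mb bin with 10 or more regions. The 5p bins beyond 5 Mb (8 of the 9 red points) were at 2.08 to 2.49 fragments whether they held 19 or 88 regions. The bins of 5q (blue) and of other chromosomes (grey) did not exceed 1.83.

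Bins of 5p with more regions mostly had higher medians, but not in strict order. The bin between 40 and 45 Mb, with 50 regions, had 2.98, below that of the bin between 25 and 30 Mb. The sparse bins were not below most bins of 5q. The 2 bins between 20 and 30 Mb, around the cadherin genes CDH12, CDH10 and CDH9, held 19 and 25 regions with median backgrounds of 2.78 and 3.30 fragments. On 5q, the bin between 140 and 145 Mb, with 79 regions, had a median of 2.21, and the bin between 70 and 75 Mb, with 75 regions, had 2.62. The 5p bin with 75 regions, between 10 and 15 Mb, had 3.98.

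Pileups were higher on 5p as well, but by a smaller factor than the backgrounds. The median region of 5p had 31 fragments at its summit (95% Poisson limits 21.1 to 44.002 for a single region of that pileup), with quartiles of 23.3 and 44. The median was 22 on 5q and 20 on the other chromosomes, giving a 5p to 5q ratio of 1.41. The fold went the other way, with a median of 6.75 on 5p, 7.29 on 5q and 7.39 elsewhere. The −log10 p-value rose with the counts, from a median of 16.0 on 5q to 18.5 on 5p. Of the 454 regions, 178 (39.2%) were in the upper 10% of the whole list by pileup and 220 (48.5%) by background, but 36 (7.93%) by fold. The arm supplied 29 of the 100 highest pileups of the list and 5 of the 100 highest folds. A ranking by pileup and a ranking by fold therefore give 5p a very different weight.

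**Figure D3:**
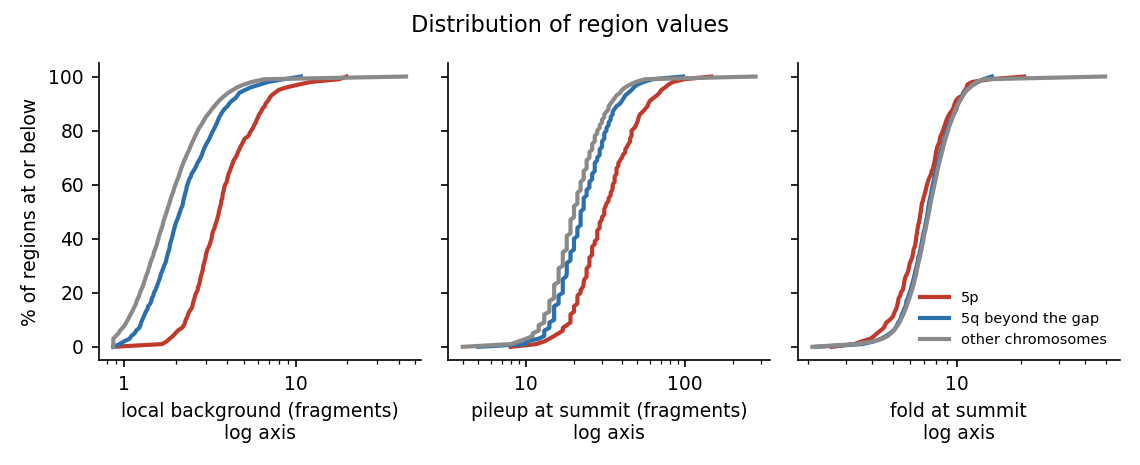
Cumulative distributions of local background, summit pileup (both in fragments) and fold over the 454 regions of 5p, the 1185 of 5q and the 17469 of other chromosomes, on log axes. The 5p curve (red) is shifted to higher background and pileup, with medians of 3.57 and 31 against 2.12 and 22 on 5q, and slightly to lower fold, with 6.75 against 7.29.

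Region density on 5p was close to that of 5q. There were 9.78 regions per Mb on 5p (95% Poisson limits 8.91 to 10.7), 9.01 on 5q (8.50 to 9.54) and 6.01 on the other chromosomes (5.92 to 6.10). The 5p to 5q ratio was 1.09 (95% limits 0.973 to 1.21, from counting alone). Regions covered 229 kb, or 0.494% of the arm, against 0.432% of 5q and 0.277% elsewhere. The direction of the density ratio depended on the ranking, since it was 0.861 in the upper 50% of the list by fold and 1.92 in the upper 25% by pileup. A cut on the p-value was also applied. With a −log10 p-value over 10 required, 421 regions of 5p and 1078 of 5q remained, a ratio of 1.11. When pileups and backgrounds of 5p alone were first divided by 1.68, the background ratio above, 283 passed and the ratio was 0.744. Since 5q was left unchanged, this division could only lower the ratio, and nothing is concluded from it. The limits given cover counting error only, and regions of 1 list are not independent replicates.

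Counting all regions of each part, 5p held 2.93 per protein-coding gene, against 1.63 on 5q and 0.913 elsewhere. The arm has 155 protein-coding genes, 3.34 per Mb, against 5.52 on 5q and 6.59 elsewhere. Of these, 87 (56.1%, 95% Wilson limits 48.3 to 63.7) were overlapped by a full-length region. The share was 47.5% on 5q (43.9 to 51.2) and 32.9% on the other chromosomes. The limits of 5p and 5q overlap. Over all 20025 protein-coding genes the share was 33.6%. The genes of 5p were also longer, with a median of 49.6 kb against 43.2 kb on 5q and 26.9 kb elsewhere, and the part of gene length in this share was not tested. Of the 155 genes of the arm, 16 held 5 or more regions, against 36 of 726 on 5q and 391 of 19144 elsewhere. In all, 252 of the 454 regions (55.5%) were in a protein-coding gene body, 133 of them (29.3% of 454) in the 15 genes with most. These shares were not computed for 5q or the other chromosomes.

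Most regions were away from promoters. Promoters, defined as 3 kb to either side of any annotated transcript start, held 124 regions (27.3%, limits 23.4 to 31.6), compared with 33.0% on 5q and 40.002% on the other chromosomes. Introns held 195 (43.0%) and distal intergenic sequence 124 (27.3%), against 39.2% and 24.0% on 5q. Only 54 regions (11.9%) were within 3 kb of the outermost start of a protein-coding gene, so that many of the promoter regions belong to alternative or noncoding transcripts. In the 3 largest classes the background was higher on 5p, with 5p to 5q ratios of 1.72 in promoters, 1.70 in introns and 1.60 in intergenic sequence. The corresponding ratios of median pileup were 1.30, 1.41 and 1.50.

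TRIO, which encodes a guanine nucleotide exchange factor that acts on the actin cytoskeleton, had the most regions of any gene on the arm, 18 over 389 kb (chr5:14143342-14532128, plus strand). The pileups of its 18 regions ran from 21 to 146 with a median of 61.5, and their backgrounds from 3.45 to 19.8 fragments with a median of 10.7. The region at chr5:14190136-14190925, in an intron, had the highest pileup of 5p at 146 (limits 123 to 172), rank 4 in the whole list. Its background of 17.7 fragments brought the fold to 7.86, between the median of the arm, 6.75, and its upper quartile, 8.18. A second group of TRIO regions, at 14264567 to 14268779, had pileups of 68, 93 and 112 on backgrounds of 18.4, 19.8 and 19.6, with folds of 3.55, 4.52 and 5.47. Downstream in the gene the backgrounds were lower, at 3.45 to 5.73 in the last 5 regions, and the highest TRIO fold, 11.1, was at chr5:14399897-14400550. The gene thus held the highest pileup and the highest background of 5p. Its median fold of 5.46 was below the lower quartile of the arm, 5.68, as were the folds of 10 of its 18 regions. Without its regions the 5p to 5q ratio of median background was 1.67 and that of pileup 1.36.

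The second highest pileup of the arm was upstream of TRIO at chr5:14035811-14036805, in intergenic sequence 24.0 kb from the start of DNAH5, a dynein heavy chain gene. It had 124 fragments (limits 103 to 148) on a background of 14.98, with a fold of 7.82. From 14097949 into the gene at 14208825, 15 regions followed each other with gaps of at most 50 kb, which was the densest of the 7 runs with 10 or more regions, at 13.5 regions per 100 kb.

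The gene lists below were chosen with results known, and their counts stand beside the 56.1% of all 5p genes with a region, so that nothing particular to a list is read from them. Among cytokine and hormone receptor genes, each of the 7 listed (OSMR, LIFR, IL7R, GHR, PRLR, NPR3 and PTGER4) had at least 1 region, 21 regions in all. RXFP3, a peptide hormone receptor gene of the arm that is outside the list, had none. OSMR, the oncostatin M receptor subunit, had 5, with pileups of 45 at the transcript start, 48 at 8.09 kb, 102 at 25.9 kb, and 34 and 31 near 80 kb into the gene. The third of these, whose sequence is printed above with its AP-1 letters, had a background of 6.72 and a fold of 13.3, and it was among the 10 highest of the arm by both pileup and fold. LIFR, which encodes a partner subunit in receptor complexes of this family, is the neighbour of OSMR. Its 5 regions were lower and more even, since their pileups ran from 27 to 36 and their folds only from 5.60 to 7.48.

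PRLR, the prolactin receptor gene, had 4 regions with pileups of 32, 52, 35 and 58, all near annotated transcript starts. IL7R, the interleukin-7 receptor gene, is short and 4.80% of its 26.9 kb lay in its 3 regions, of which the one 5.10 kb from the start had a pileup of 69 and the others 26 and 27. NPR3, the clearance receptor for natriuretic peptides, had pileups of 15 and 38. PTGER4, a prostaglandin E2 receptor gene, shared its 1 region, with a pileup of 34, with the overlapping gene TTC33, so that the region cannot be assigned to either. GHR, the growth hormone receptor gene, had a single region with a pileup of 12 on a background of 1.42.

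Of 7 listed actin and endocytic scaffold genes, 6 had regions, 48 in all, beside 56.1% over the arm, and TPPP had none. BASP1, which encodes a membrane-bound signal protein of the cell cortex, had 8 regions with pileups of 22 to 112. Its highest, at chr5:17238478-17239141, was the third of the arm by pileup and the second by fold, with 112 fragments on a background of 6.45 and a fold of 15.2. It lay 173 kb into the gene, near an annotated transcript start. RAI14, an actin-binding ankyrin repeat gene, had 6 regions with pileups between 22 and 70. DAB2, an endocytic adaptor gene, had 6 with pileups between 18 and 61, which covered 3.31% of its 90.6 kb. FYB1, an adaptor gene of blood cells, also had 6, with pileups of 23 to 63. MYO10, an unconventional myosin of filopodia, had only 4, with pileups of 13 to 31.

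All 4 listed matrix and matrix protease genes, beside 56.1% of the genes of the arm, were occupied, with 29 regions. ADAMTS12, a secreted metalloproteinase gene, had 14 regions, none of them in a promoter, with pileups of 20 to 69 and backgrounds of 2.78 to 7.77. ADAMTS16, of the same family, had 10, and 3.31% of the gene was covered. Its highest pileup, 79 on a background of 8.45, was in an exon 5.32 kb from the start. EGFLAM, which encodes the matrix protein pikachurin, had 2 regions with pileups of 16 and 79. ANKH, a pyrophosphate transport gene, had 3 with pileups of 26, 35 and 26.

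**Figure D4:**
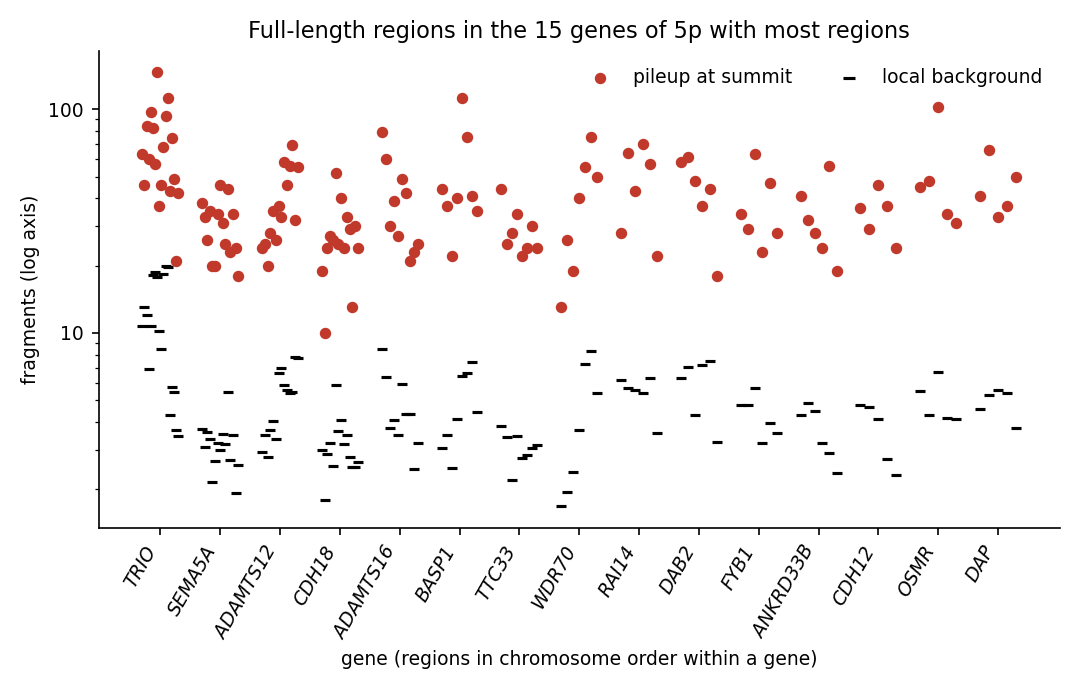
Summit pileup (red points) and local background (black dashes) in fragments, on a log axis, of every full-length region in the 15 protein-coding genes of 5p with most regions. TRIO has the highest values of both, 146 and 19.8, and the single regions of BASP1 at 112 and OSMR at 102 stand above others of the same genes.

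Among guidance and adhesion genes, SEMA5A, a semaphorin gene of 511 kb, held 15 regions with pileups of 18 to 46 and backgrounds of 1.92 to 5.42. The other ligand genes listed, FGF10, GDNF and C1QTNF3, had none in the gene body. Around GDNF, 6 regions outside protein-coding genes were 30.9 to 67.7 kb from its start, with pileups of 23 to 78. Of 6 cadherin and catenin genes, 4 had regions. CDH18 had 14 spread over 1105 kb (pileups 10 to 52) and CDH12 had 5 over 1103 kb (24 to 46), so that only 0.604% and 0.209% of these genes was covered. CDH9 had 3 regions with pileups of 27 to 37, and CDH6 and CDH10 had none.

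Further genes among the 15 with most regions were TTC33 with 8 (pileups 22 to 44), WDR70 with 7 (13 to 75), ANKRD33B with 6 (19 to 56) and DAP, a gene of interferon-induced cell death, with 5 (33 to 66).

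The next 5 lists ranged from 1 of 3 to 4 of 5 members with a region, beside 56.1% of all genes of the arm. Of the 5 genes in the cell cycle and chromosome list, which also holds the ribosome assembly gene BRIX1, 4 had regions. RAD1 shared its only region, with a pileup of 26, with the overlapping gene BRIX1. TRIP13, a gene of the arm outside the list, had none. NIPBL, the cohesin loader gene, had 4 (pileups 42, 35, 15 and 32). SKP2, a ubiquitin ligase subunit gene, had 2 (pileups 27 and 26). The first of these covers the starts of both SKP2 and LMBRD2. Translation and folding genes had regions in 4 of 5, each with a single one, such as the ribosomal protein gene RPL37 with a pileup of 25 at its start. Of 5 signalling genes, RICTOR, the defining subunit of mTOR complex 2, had 3 regions with pileups of 26, 32 and 21, AHRR, a repressor of the aryl hydrocarbon receptor, had 2 with pileups of 19 and 22, and the others had none. Mitochondrial and metabolic genes had regions in 3 of 8, among them HMGCS1, a sterol synthesis gene, with a pileup of 45 at its start. Of the complement genes C6, C7 and C9, only C7 had a region, which had a pileup of 15 and was shared with the overlapping gene MROH2B.

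Of the 27 protein-coding genes in the first 2 Mb, 10 (37.0%) had a region, compared with 56.1% over the arm and 33.6% over all genes. TERT, SLC12A7 and SLC6A19 had no region, and CLPTM1L, which adjoins TERT, had 2 with pileups of 22 and 36 on the same background of 3.68. None of the 3 homeobox genes IRX1, IRX2 and IRX4 had a region. They lie in the longest region-free stretch of the arm, 3.20 Mb from 1790504 to 4994972, which also holds NDUFS6 and MRPL36. The next stretches, of 1.51 Mb from 25363222 and 1.497 Mb from 22596863, hold between them 1 protein-coding gene, PRDM9, which directs meiotic recombination. A stretch of 1.21 Mb from 43602222 holds FGF10 and NNT, and one of 1.17 Mb from 6733319 holds ADCY2.

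Part of the regions of the arm lay in runs, and runs were not counted on 5q or the other chromosomes. With gaps of at most 50 kb, 7 runs of 10 or more regions held 91 of the 454 (20.04%), and 74 regions (16.3%) had none within 50 kb. The run over TRIO had a median background of 10.6 fragments, the highest of the 7. Runs of 15 regions each were also found over ADAMTS16 and ICE1 (5271218 to 5422700, median background 4.71) and from upstream of RAI14 into the gene (34499106 to 34717970, 5.38). The others were over ADAMTS12 with 13 regions, around ANXA2R and ZNF131 with 13, around ANKRD33B with 10, and over SPEF2, IL7R and CAPSL with 10. Their median backgrounds were between 3.16 and 5.47 fragments. The eighth and ninth highest pileups of the arm, 90 and 88, belonged to the runs at ANKRD33B and ANXA2R.

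By fold, the BASP1 region was followed by regions with 15.1 at chr5:5025846-5026290, 114 kb from the start of ADAMTS16, 14.6 in ANKRD33B, 14.5 at 63.0 kb from SELENOP, the gene of the plasma selenium carrier, and 14.2 at the start of RIMOC1. AGXT2, PLEKHG4B and SEMA5A held the eighth to the tenth, with folds of 12.4, 11.9 and 11.8.

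AP-1 letters were as frequent on 5p as elsewhere in the list. AP-1 is a dimer of the Fos and Jun families, and TGACTCA is its usual binding motif. Within 100 bp of the summit, 157 of 454 regions held it on either strand (34.6%, limits 30.4 to 39.1), against 32.3% on 5q and 32.3% of all regions. In windows of the same length 2 kb away the shares were 3.52%, 2.95% and 3.35%. Outside promoters the share was 37.6% on 5p, 38.4% on 5q and 38.8% overall. Regions of 5p with and without the letters had nearly the same median pileup, 32 and 31, and background, 3.55 and 3.61. In the printed windows the first letter of the match was at position -39 from the summit in OSMR, and at -15 and 1 in TRIO.

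GC box letters were rarer on the arm than in the whole list, and the 95% limits of these and the other letters below overlapped between 5p and 5q. CATTCC, the core bound by TEAD factors, was found in 20.7% of 5p windows, 24.2% of 5q windows and 21.1% of all, and TGTGGTT, bound by RUNX factors, in 8.59%, 9.37% and 7.51%. The GC box GGGCGG was found in 7.49%, 11.4% and 14.6%. Its shares were 22.6%, 29.4% and 32.4% in promoters, and 1.82%, 2.52% and 3.13% outside them. Promoters were a smaller part of the 5p regions, and their part in the GC box difference was not tested. CCAAT was found in 25.8%, 29.96% and 30.9%. In windows 2 kb away the CCAAT shares were 29.96%, 26.6% and 25.3%, so that this motif was not concentrated at the summits of 5p. The TGTGGTT shares there were 6.39%, 3.38% and 3.58%. The 5p value lay within the limits of its summit share, 6.35 to 11.5. CATTCC had 10.6%, 11.2% and 10.7% in these windows, and GGGCGG 2.86%, 2.70% and 4.15%. Median GC content at the summit was 42.8% on 5p, 44.3% on 5q and 45.3% over the list, but 41.8%, 41.8% and 42.8% outside promoters. A match of letters is a description of the window and not a binding site.

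**Figure D5:**
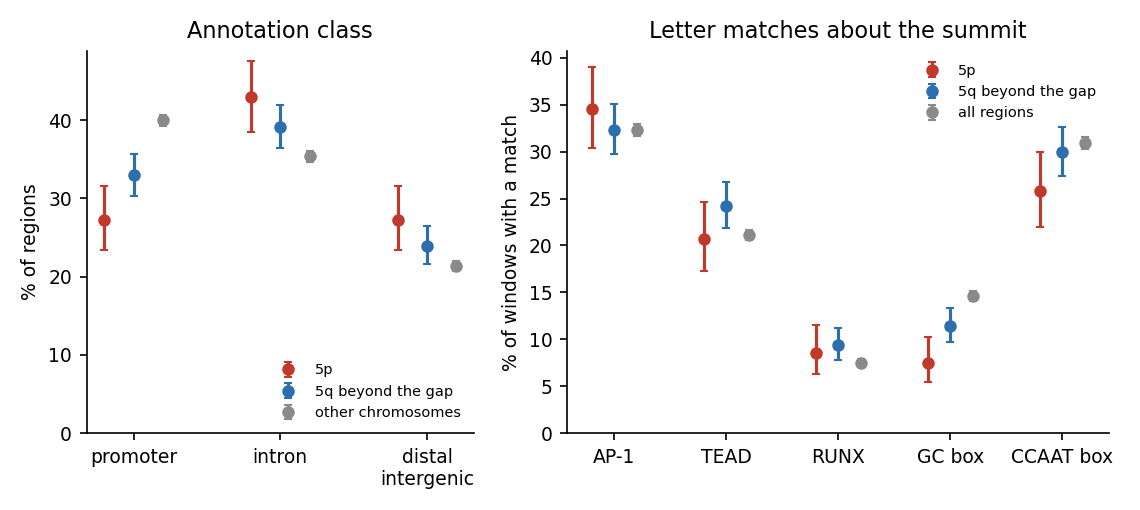
Shares of regions by annotation class (left) and shares of 201 bp windows about the summit that hold each set of letters (right), in percent with 95% Wilson limits. On 5p (red) promoters held 27.3% of regions against 40.002% on other chromosomes (grey, left), and AP-1 letters 34.6% of windows against 32.3% of all regions (grey, right).

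Of the 54 regions of dZF-ZNF469, 2 were on 5p, none on 5q and 52 on other chromosomes. One overlapped a full-length region. The other was at chr5:17527059-17527175, 1.49 kb from the start of TAF11L6, with a pileup of 12 (limits 6.20 to 21.0), a background of 0.625 and a fold of 8.001. This background is the lowest in the dZF list, so the fold rests on that floor. The region lies within a stretch of 1.35 Mb without full-length regions that holds a series of TAF11L genes. How uniquely its fragments align was not tested. The nearest full-length region was 128 kb away. The dZF list held 54 regions in all against 19108 in the full-length list, so most full-length regions of any part had no dZF counterpart. Nothing particular to 5p is read from this. With pools of unknown total depth, the difference between the constructs was not tested.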

How the data were processed

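CUT&RUN with anti-ZNF469 was done in LX-2 cells, 3 libraries per construct. The labels do not say whether libraries came from separate cultures. The submitters' processing notes name Bowtie2 2.3.4.3, MACS2 2.2.5 and hg38. The authors pooled the libraries of a construct into 1 IDR-filtered peak list. The deposited columns used were the fold (a ratio) and the −log10 p-value at the summit, and the summit offset. The use of a control library is not stated, and total depth was not analysed here.

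A whole-number pileup and a background that give both deposited values were solved for each record (largest miss 6.9e-05 in −log10 p) with numpy 2.4.6 and scipy 1.17.1. The method was tested on simulated data. The background step was read from 15299 backgrounds, of which 100% were whole multiples within 0.02 steps. Annotation used GENCODE 44, sequences the hg38 reference, whose chromosome lengths contain all records. Limits are 95% exact Poisson or Wilson, and cover counting error only. Pileups count sequenced items, called fragments here, and not molecules. Whether each item is a whole fragment or a read extended to a set length was not tested.

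The members and gene lists were chosen with earlier results of these data known. Named genes were the 15 protein-coding genes of 5p with most regions (ties by covered bp), up to 4 members of each list, genes at the 10 regions highest by pileup and by fold, and the regions beside the centromere. Of these, 2 regions are not reported here. The alternatives tried varied the ranking, the limits of the arm, neighbours, promoters and windows.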

Additional observations from a re-analysis of the deposited data

How the results depend on the processing

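No paired analysis was possible because each construct has 1 pooled list, and for the same reason no library could be left out. Of 33 alternatives planned for 11 results, 19 stayed within the 95% limits or within 1.5 times a count. The density ratio of 5p to 5q fell to 0.861 and 0.866 in the upper 50% and 25% by fold, below 1, and was 1.92 in the upper 25% by pileup and 1.79 per protein-coding gene start. Dividing 5p counts alone by the background ratio, an alternative chosen after seeing the data, gave 0.744. It could only lower the density ratio. The 3 rankings left 171, 88 and 273 regions on 5p. In the upper 50% by fold the background ratio was 1.84 and the pileup ratio 1.56. Over the other settings tried, the background ratio was 1.63 to 1.74. Promoters within 1 kb held 19.6% of 5p regions. The share of 5p genes with a region was 45.7% without the first 3 kb and 21.3% for the upper 25% by fold. These alternative shares were not computed for 5q. AP-1 letters were in 21.8% of 5p windows of 50 bp to each side and in 44.3% of whole regions, by the length searched. Depth limits single regions, since a pileup of 31 has limits of 21.1 to 44.002.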
